A study of Mus musculus with 8 samples.

Results

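The genes described here are 45 genes whose products copy DNA, chosen by name as a gene module. They belong to 9 roles: origin licensing (10 genes), helicase activation (6), polymerases and primase (6), the sliding clamp and its loader (6), single-strand binding (3), lagging-strand maturation (2), nucleotide supply (4), S-phase entry (4), and chromatin assembly and maintenance methylation (4). All 45 had a row in both of the study's systems, out of 13073 genes listed in either system, 12133 of them in vitro and 12665 in vivo. The study measured RNA of sorted mouse thymocytes by bulk sequencing, in 4 groups of 2 libraries. The WT-labelled libraries came from Bcl6fl/fl mice and the KO-labelled libraries from Bcl6fl/fl Cd4cre mice, so every group carried the floxed allele. Cre driven by the Cd4 promoter acts in all thymocytes that switch this promoter on and their progeny, not in a single lineage. For the in vitro system, cells positive for both CD4 and CD8 were sorted and cultured for 24 h on plates coated with anti-CD3 (8 μg/ml) and anti-CD28 (8 μg/ml), and the cells negative for both coreceptors were then sorted again. In the in vivo system, cells negative for CD4 and CD8 and positive for CD5 and TCRb were sorted directly, a population called agonist-p in the labels. The labels give no age. They also do not say whether 2 replicates stand for 2 mice or 2 cultures, so the spread behind each p-value may be technical. Libraries of the 2 systems were made by different sequencing providers, so system and provider cannot be told apart.

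A replication origin is licensed in G1, when the origin recognition complex, Cdc6 and Cdt1 load the MCM2-7 helicase onto DNA. At the start of S phase, Mcm10, Cdc45 and the GINS complex turn this helicase on, and polymerases, the PCNA clamp, the RPA complex and the ligase and nuclease that join lagging-strand fragments then copy the DNA. Many of these genes are textbook targets of the E2F factors, which are released when cyclin E and other cyclins drive phosphorylation of the retinoblastoma protein. Immature thymocytes divide rapidly before the double-positive stage, and double-positive thymocytes mostly rest.

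Stretches of promoter that hold an E2F-like match are shown for 9 of the genes, because the letters are what many of these genes share outside the expression data. They come from the RefSeq promoter table (build GRCm38.p6, the same coordinates as mm10), which covers 250 bases before to 50 bases after a start and matched 37 of the 45 genes. Each is a run of 30 bases, 5′ to 3′ on the gene's own strand, and the capitals mark the matched letters. The forms searched were TTTCCCGC, TTTGGCGC, TTTCGCGC and TTTGCCGC on both strands, and forms that overlap were each counted.
Cdc6: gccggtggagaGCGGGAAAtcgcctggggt
E2f2: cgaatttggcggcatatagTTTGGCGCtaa
Lig1: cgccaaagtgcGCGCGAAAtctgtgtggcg
Uhrf1: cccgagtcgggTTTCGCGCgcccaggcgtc
Mcm5: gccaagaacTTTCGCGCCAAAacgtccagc
Orc1: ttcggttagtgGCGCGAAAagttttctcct
Rfc3: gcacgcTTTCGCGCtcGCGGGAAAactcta
Mcm3: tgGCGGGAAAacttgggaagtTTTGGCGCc
Mcm6: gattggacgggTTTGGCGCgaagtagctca
The Cdc6, E2f2 and Lig1 stretches belong to the genes with some of the largest changes described further on, and Mcm6 stands for a gene with matches that did not rise. Cdc6 lies at chr11:98908002-98908031 on the plus strand, E2f2 at chr4:136172294-136172323 on the plus strand and Lig1 at chr7:13278841-13278870 on the plus strand. Uhrf1 lies at chr17:56304117-56304146 on the plus strand, Mcm5 at chr8:75109347-75109376 on the plus strand and Orc1 at chr4:108579416-108579445 on the plus strand. Rfc3 lies at chr5:151651195-151651224, Mcm3 at chr1:20820266-20820295 and Mcm6 at chr1:128359734-128359763, all on the minus strand. The matches of E2f2, Lig1 and Mcm3 begin 39, 26 and 19 bases after the start, and those of Orc1 and Mcm6 begin at positions -27 and -47 relative to it. Each start is that of the promoter table. For E2f2, Mcm5 and Mcm6 the bases right after it were not found in a GENCODE transcript of the gene, so positions relative to the start are uncertain for these genes. Of the 37 genes with a window, 15 (40.5%) held an E2F-like match, against 2.6% of the 27025 genes in the table and 5.18% of the 7857 genes with a window that were tested in vitro. Mcm6 held 3 matches and Rfc3, Mcm3, Mcm5, Mcm7 and Dnmt1 held 2 each. The CCAAT box was found for 24 of the 37 genes (64.9%), against 41.1% of all genes and 43.3% of those tested in vitro. The cell cycle element TTTGAA or TTCGAA was found for 8 of 37 (21.6%), against 21.7% of all genes and 15.9% of those tested in vitro. The BCL6-like core TTCCTNGAA was found for 1 of 37, Lig1, against 1.86% of all genes and 1.36% of those tested in vitro.

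Libraries held 14754440 to 23975636 counts. Bcl6 itself did not check the labels. Its FPKM (fragments per length of transcript and per library depth, as deposited) was 24.9 and 21.9 in the WT-labelled and 64.6 and 61.0 in the KO-labelled libraries in vitro. In vivo it was 11.5 and 13.9 in the WT-labelled and 8.81 and 14.4 in the KO-labelled libraries. Gene-level counts do not separate the floxed exons from the rest of the gene. For this reason each direction given here is between libraries as labelled. T cell markers (7 of 10 with a row) summed to 956 to 1122 FPKM in vitro and 1027 to 1265 in vivo, while the constant-region genes Trbc1, Trbc2 and Trac had no row. Coreceptor genes, whose proteins the gates exclude, summed to 21.7 to 31.2 FPKM in vitro and 31.8 to 96.8 in vivo.

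In vitro, most DNA replication genes were higher in the KO-labelled libraries. Of 44 that passed the expression filter (2 or more libraries with an FPKM of 1 or higher), 33 rose and 0 fell at an adjusted p under 0.05 (edgeR's quasi-likelihood test, Benjamini-Hochberg over all genes tested), and 11 rose at least 2-fold. Over all 9658 genes tested, 20.1% rose and 17.7% fell. The median log2 fold change was 0.60 over the members and -0.00 over all genes tested. The largest changes were those of Cdc6 (4.37-fold) and E2f2 (4.24-fold), and Mcm6 had the lowest log2 fold change, at -0.22. Cdc6 reached an FPKM of 1 only in the KO-labelled libraries, so a gene at its WT level could enter the test only by being higher there. The Cdc6 call was kept in the fit without the filter. Summed over the 45 genes, FPKM was 649 and 617 in the WT-labelled and 816 and 791 in the KO-labelled libraries. In bulk RNA, a larger number of cells in S phase and more RNA in each such cell cannot be told apart. For 37 of the 45, both KO-labelled libraries lay above both WT-labelled ones, which 32.5% of all genes tested did. Both lay below for 2 of 45, Mcm6 and Rpa3, against 38.6% of all genes tested.

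**Figure D1:**
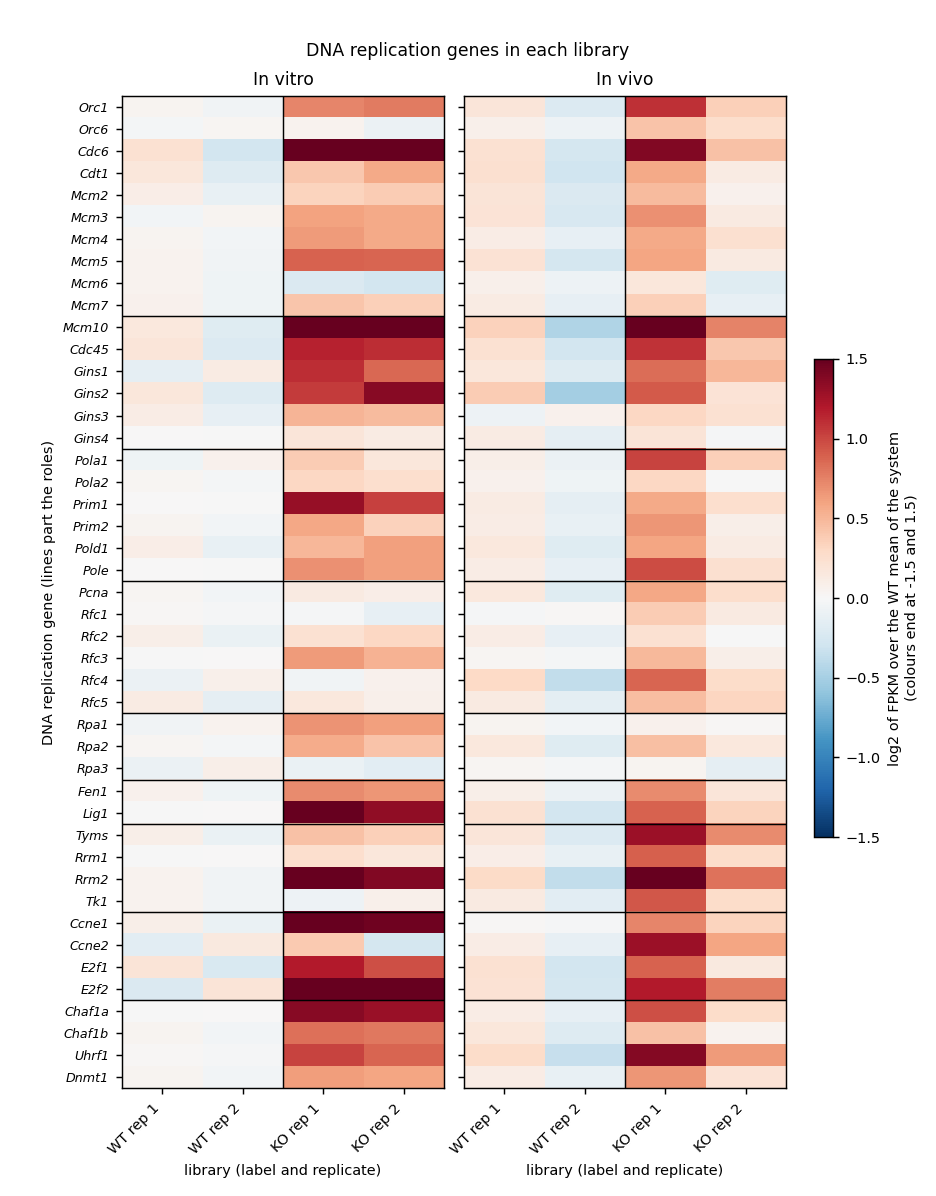
Log2 of FPKM over the mean of the 2 WT-labelled libraries of the same system, for 45 DNA replication genes (rows, parted by role) in 8 libraries (columns); colours end at -1.5 and 1.5. In vitro both KO-labelled columns are red for most genes, with Mcm6 blue in both, and in vivo the column of KO replicate 1 is redder than that of KO replicate 2 in all 45 rows.

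Origin licensing genes rose in 8 of 10 cases. Cdc6, an ATPase that takes part in loading the helicase, was at 0.382 and 0.269 FPKM in the WT-labelled and 1.53 and 1.34 in the KO-labelled libraries (log2 fold change 2.13, SE 0.23, adjusted p = 5.71e-05). Mcm5, a helicase subunit, went from 30.2 and 27.9 to 53.5 and 53.0 FPKM (log2 fold change 0.90, SE 0.08, adjusted p = 1.35e-05). Its neighbour in the hexamer ring, Mcm3, was at 35.4 and 37.6 against 55.3 and 54.2 FPKM (log2 fold change 0.61, SE 0.08, adjusted p = 0.000191). In each of these 3 genes the groups did not overlap, and the KO-labelled replicates lay closer to each other than to any WT-labelled library. The origin-binding ATPase Orc1 (0.78), Mcm4 (0.63), the loading factor Cdt1 (0.51), Mcm7 (0.41) and Mcm2 (0.38) also rose on the log2 scale. The calls for Cdt1, Mcm2 and Mcm7 were lost when the spread was estimated from all 8 libraries, and that of Mcm2 also without WT replicate 2 (edgeR adjusted p = 0.0598).

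Mcm6 departed from its partners. It encodes 1 of the 6 subunits of the same ring, and its FPKM was 136 and 125 in the WT-labelled and 112 and 108 in the KO-labelled libraries. Both KO-labelled libraries lay below both WT-labelled ones, but the fold change did not pass the threshold (log2 fold change -0.22, SE 0.09, edgeR adjusted p = 0.0862). With DESeq2 the fall passed it (adjusted p = 0.0434). Mcm6 was the most abundant of the 45 genes per length in both systems. Its FPKM was 3.96 times the mean of Mcm2, Mcm3, Mcm4, Mcm5 and Mcm7 in the WT-labelled libraries and 2.28 times that mean in the KO-labelled ones. In vivo the same ratio was 2.09 and 1.65. Orc6, a subunit of the origin recognition complex, was at 7.44 and 7.78 FPKM against 7.88 and 7.16, with overlapping groups (log2 fold change 0.01, 95% interval -0.25 to 0.27).

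Helicase activation genes rose in 4 of 5 tested cases. Cdc45, which joins the helicase at firing, was at 1.63 and 1.24 FPKM in the WT-labelled and 3.20 and 3.09 in the KO-labelled libraries (log2 fold change 1.14, SE 0.18, adjusted p = 0.000637). Gins1 moved from 4.56 and 5.45 to 10.8 and 9.12 FPKM (log2 fold change 1.03, SE 0.16). Gins2 stood at 1.04 and 0.807 against 1.91 and 2.37 FPKM (log2 fold change 1.23, SE 0.20). These 3 parts of the active helicase were each more than 2-fold higher, without overlap between groups. The GINS complex holds its 4 subunits in equal number, yet Gins3 rose by 0.51 and Gins4, the most abundant of them at 21.7 and 21.4 FPKM against 24.5 and 23.6, had a log2 fold change of 0.18 that did not pass (adjusted p = 0.158). The call for Gins3 was lost without WT replicate 2 (edgeR adjusted p = 0.155), KO replicate 1 (0.115) or KO replicate 2 (0.0782). Reads of Gins2 are uncertain, since 67.3% of its exon bases overlap Gse1 on the other strand and the strand setting of the counting is not given in the sources used here. Mcm10, which helps fire the helicase, was under the filter and was not tested, at 0.233 and 0.183 FPKM against 0.777 and 0.838 (43 and 23 against 106 and 140 reads).

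All 6 polymerase and primase genes had positive log2 fold changes, and 5 rose. Prim1, the catalytic subunit of primase, was at 3.51 and 3.46 FPKM in the WT-labelled and 8.63 and 7.09 in the KO-labelled libraries (log2 fold change 1.19, SE 0.13, adjusted p = 4.1e-05). Pole, the leading-strand polymerase, went from 2.04 and 2.01 to 3.27 and 3.10 FPKM (log2 fold change 0.68, SE 0.10). Pold1, its lagging-strand counterpart, went from 18.1 and 15.6 to 23.8 and 25.8 FPKM (log2 fold change 0.58, SE 0.09). Within the primase and polymerase alpha complex, the changes were unequal: Prim2, the large primase subunit, rose by 0.49 and the accessory subunit Pola2 by 0.30 on the log2 scale. The catalytic subunit Pola1 did not pass (0.31, adjusted p = 0.0859). The Prim2 call was lost without KO replicate 1 (edgeR adjusted p = 0.0946), and that of Pola2 without WT replicate 1 (0.0565), WT replicate 2 (0.0807) or KO replicate 1 (0.056).

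The clamp and clamp loader genes had the smallest median log2 fold change of the 9 roles in vitro, 0.14, and 2 of 6 rose. Pcna, the sliding clamp, was at 81.7 and 77.8 FPKM in the WT-labelled and 87.3 and 85.2 in the KO-labelled libraries (log2 fold change 0.14, 95% interval -0.03 to 0.31). The loader subunit Rfc3 was at 3.74 and 3.78 against 5.87 and 5.38 FPKM (log2 fold change 0.61, SE 0.12, adjusted p = 0.00259). Rfc2 was at 11.2 and 9.87 against 12.4 and 13 FPKM (log2 fold change 0.29, adjusted p = 0.0287). Rfc2 did not pass without WT replicate 2 (edgeR adjusted p = 0.21) or KO replicate 2 (0.0742). The Pcna groups did not overlap, but the gap was within the error of the fit. The other loader subunits, Rfc5 (0.14), Rfc4 (0.04) and the large subunit Rfc1 (-0.04, with FPKM 17.3 and 17 against 17 and 15.7), did not pass. Pcna also has named pseudogenes, whose reads the counting could have shared.

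RPA coats single-stranded DNA as a trimer, and its subunits moved unequally. Rpa1, the large subunit, was at 31.4 and 33.6 FPKM in the WT-labelled and 51.8 and 49.7 in the KO-labelled libraries (log2 fold change 0.67, SE 0.08, adjusted p = 0.000132). Rpa2 went from 8.46 and 8.10 to 12.1 and 11.2 FPKM (log2 fold change 0.52, SE 0.10, adjusted p = 0.00215). The small subunit Rpa3 was at 17 and 19.2 against 17 and 16.2 FPKM, with a log2 fold change of -0.10 that did not pass (95% interval -0.36 to 0.16).

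Both lagging-strand genes rose. Lig1, the ligase that seals Okazaki fragments, was at 5.49 and 5.51 FPKM in the WT-labelled and 15.5 and 13.9 in the KO-labelled libraries (log2 fold change 1.44, SE 0.10, adjusted p = 2.02e-06). Lig1 had the smallest p-value of the 45 genes. The flap nuclease Fen1 went from 1.22 and 1.11 to 1.91 and 1.84 FPKM (log2 fold change 0.70, SE 0.21, adjusted p = 0.0227). Its call was lost without any 1 of the 4 libraries (edgeR adjusted p = 0.054 to 0.0856). Fen1 is also uncertain because 84.2% of its exon bases overlap Tmem258 or Gm10143 on the other strand.

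In nucleotide supply, Rrm2 stood apart from the other 3 genes. Rrm2, the regulatory subunit of ribonucleotide reductase that limits its activity in S phase, was at 1.52 and 1.41 FPKM in the WT-labelled and 4.52 and 3.82 in the KO-labelled libraries (log2 fold change 1.53, SE 0.18, adjusted p = 9.55e-05). Its partner Rrm1, the large subunit, was at 6.64 and 6.70 against 7.93 and 7.53 FPKM (log2 fold change 0.24, adjusted p = 0.0441). Tyms, which makes dTMP, was at 1.65 and 1.45 against 2.10 and 1.99 FPKM (log2 fold change 0.42, adjusted p = 0.0453). The calls for Rrm1 and Tyms lay at the threshold and were lost in 10 and 11 of 13 alternative settings: Tyms without any 1 of the 4 libraries (edgeR adjusted p = 0.0639 to 0.193), Rrm1 without any but KO replicate 2 (0.126 to 0.209). Tk1, the salvage kinase for thymidine, was at 3.85 and 3.58 against 3.52 and 3.93 FPKM, with overlapping groups (log2 fold change 0.03). Like Pcna, Tyms has a named pseudogene, whose reads the counting could have shared.

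S-phase entry genes showed the largest median, 1.31 on the log2 scale. E2f2, an activating E2F factor, was at 0.870 and 1.15 FPKM in the WT-labelled and 4.55 and 3.78 in the KO-labelled libraries (log2 fold change 2.09, SE 0.18, adjusted p = 9.95e-06). Ccne1, one of the cyclins of CDK2, went from 1.28 and 1.13 to 3.6 and 3.31 FPKM (log2 fold change 1.53, SE 0.19, adjusted p = 0.000132). E2f1, another activating E2F factor, went from 2.69 and 2.02 to 5.38 and 4.60 FPKM (log2 fold change 1.09, SE 0.17). All 3 were low in both WT-labelled libraries and at least 2.13-fold higher in the fit. The second cyclin E gene, Ccne2, was at 1.02 and 1.26 against 1.5 and 0.949 FPKM, and its groups overlapped (log2 fold change 0.12, 95% interval -0.44 to 0.69).

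**Figure D2:**
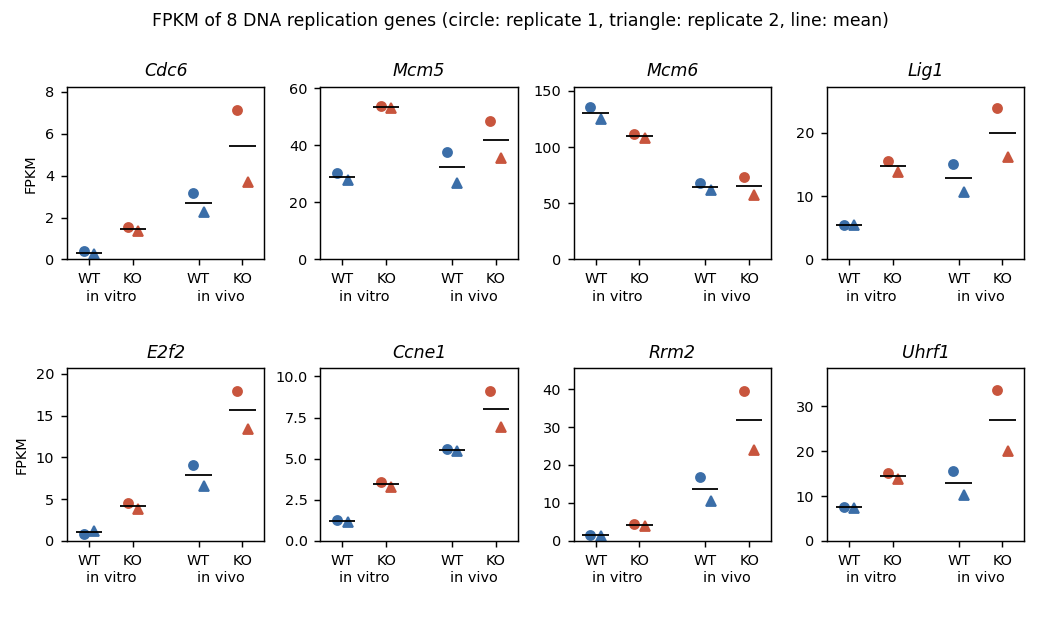
FPKM of 8 DNA replication genes (y axis, from 0) in the WT-labelled (blue) and KO-labelled (red) libraries of each system; circles are replicate 1, triangles replicate 2 and lines the mean of the 2. In vitro the points of each group lie close together and do not overlap between groups, with Mcm6 lower in the KO-labelled libraries. In vivo, KO replicate 1 is the highest of the 4 in vivo points in all 8 panels.

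All 4 chromatin genes rose. Chaf1a, the large subunit of the histone chaperone that follows the fork, was at 1.03 and 1.04 FPKM in the WT-labelled and 2.66 and 2.52 in the KO-labelled libraries (log2 fold change 1.36, SE 0.13, adjusted p = 1.68e-05). Uhrf1, which brings the maintenance methyltransferase to new DNA, went from 7.58 and 7.37 to 15.1 and 13.7 FPKM (log2 fold change 0.97, SE 0.09, adjusted p = 2.07e-05). Dnmt1, that methyltransferase, went from 30.4 and 28.7 to 45.6 and 44.6 FPKM (log2 fold change 0.64, SE 0.08, adjusted p = 0.000175). No group overlapped in these 3, and Chaf1b, the partner of Chaf1a, rose by 0.83. Exon bases of Chaf1a overlap Ubxn6 on the other strand by 52.5%, so its reads are uncertain.

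Log2 fold changes in vitro were larger, at the median, among the members of low level. Among 19 with a mean FPKM under 5, the median log2 fold change was 0.78 and 16 rose, and among 25 with a mean of 5 or more it was 0.41 and 17 rose. In the lower set, Cdc6 passed the filter only through the KO-labelled libraries, and E2f2 and Gins2 needed a KO-labelled library to pass. Mcm10 was the only member that the filter left out, and both its KO-labelled values lay above both WT-labelled ones. Spearman's rho between mean FPKM and log2 fold change was -0.39 over the 44 genes, which share the same 4 libraries. The members with an E2F-like promoter match had a median log2 fold change of 0.61 (15 genes) and those without one 0.42 (22 genes, of which Mcm10 was not tested). A match was present in 13 of the 27 windowed members that rose in vitro. It was also present in 2 of the 9 tested windowed members that did not pass there, which were Mcm6 and Pola1. In vivo the median log2 fold change was 0.42 with a match and 0.44 without one, so the order of the medians in vitro was not seen there.

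Other genes of the cell cycle were read from lists in the same in vitro libraries, where 20.1% of all genes tested rose and 17.7% fell. Of 30 tested genes of the rest of the replication machinery, 8 rose and 2 fell, and those that changed most were Gmnn (0.95), the geminin inhibitor of Cdt1, the fork protection gene Timeless (0.69) and Wdhd1 (0.65). Checkpoint and repair genes rose in 8 of 13 cases and fell in 0, led by the checkpoint kinase Chek1 (1.41), the phosphatase Cdc25b (1.25) and Brca1 (0.96). G1/S regulators split into 10 that rose and 4 that fell of 20, with Ccnd2, cyclin D2, at 2.26, E2f5, a repressive E2F, at -0.86 and the inhibitor Cdkn2c at 0.69. Other nucleotide supply genes split the other way, with 4 that rose and 6 that fell of 16: the dNTPase Samhd1 rose by 0.77, and the CTP synthase Ctps changed by -0.73. Histone and chromatin genes linked to replication gave 3 that rose and 2 that fell of 13, near the shares of all genes tested, with a median log2 fold change of -0.06. The largest called changes in that list were those of Asf1b (0.75), Hells (0.57) and Lmnb1 (0.28). Of the listed genes named here, the calls for Cdkn2c, Hells, Lmnb1 and Ccnb2 were lost when at least 1 library was left out. That of Samhd1 was lost with DESeq2 (adjusted p = 0.193), and its log2 fold change was 0.41 without WT replicate 1 and 1.19 without WT replicate 2. Mitosis genes were often under the filter. Of 10 tested, 7 rose and 0 fell (Mki67 1.79, Top2a 1.27, Ccnb2 1.17), and the 20 listed genes summed to 24.3 and 25.9 FPKM in the WT-labelled and 36.8 and 35.1 in the KO-labelled libraries. Mki67, Plk1 and Kif11 passed the filter only through the KO-labelled libraries, as did Brca1 and Fanci of the checkpoint and repair list.

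Some markers of other cells also differed in vitro. Markers of double-positive thymocytes (7 of 8 with a row) summed to 120 and 118 FPKM in the WT-labelled and 76.2 and 71.1 in the KO-labelled libraries. B cell markers (2 of 8 with a row) summed to 2.85 to 2.95 and 5.06 to 5.76 FPKM, and thymic stroma markers (4 of 8) to 15.7 to 17.5 and 28.4 to 29.8. No marker with a row was at 0. Their part in the replication gene result was not tested.

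In vivo, no DNA replication gene passed the threshold in the fit of the 4 in vivo libraries. All 45 were tested, 0 rose and 0 fell by edgeR's quasi-likelihood test, against 0.284% that rose and 0.821% that fell among the 10227 genes tested. At an unadjusted p under 0.05 there were 22 members, each with a positive fold change, and 1445 of all genes tested. By DESeq2, 6 members rose, and the counts over all genes, also larger than by edgeR, are given in the last section. Log2 fold changes were above 0 for 43 of 45, with a median of 0.42 against -0.00 over all genes. The median width of the 95% interval was 1.001 in vivo and 0.51 in vitro on the log2 scale.

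Single libraries carried much of the in vivo difference. KO replicate 1 was the highest of the 4 libraries for all 45 genes and WT replicate 2 the lowest for 41. The members summed to 654 and 533 FPKM in WT-labelled replicates 1 and 2 and to 894 and 665 in KO-labelled replicates 1 and 2, so KO replicate 2 and WT replicate 1 were nearly level. KO replicate 2 lay above WT replicate 1 for 27 of 45 genes and above WT replicate 2 for 43. Both KO-labelled libraries lay above both WT-labelled ones for 27 genes and below them for 0, against 22.0% above and 21.4% below among all genes tested. For 26 genes the KO-labelled replicates differed more from each other than the group means did on the log2(FPKM + 1) scale. Without KO replicate 1 the median log2 fold change was 0.22, and without KO replicate 2 it was 0.67.

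Nucleotide supply and S-phase entry genes had the largest median log2 fold changes of the roles in vivo, 0.82 and 0.76. Rrm2 was at 16.8 and 10.6 FPKM in the WT-labelled and 39.4 and 24.1 in the KO-labelled libraries (log2 fold change 1.20, SE 0.29, edgeR adjusted p = 0.132). Tyms was at 2.35 and 1.80 against 5.04 and 3.38 FPKM (log2 fold change 1.02, adjusted p = 0.125). Rrm1 was at 9.08 and 7.88 against 15.8 and 10.3 FPKM (log2 fold change 0.62). The groups of these 3 genes did not overlap, and KO replicate 1 was well above KO replicate 2 in each. E2f2 was at 9.14 and 6.54 against 17.9 and 13.4 FPKM (log2 fold change 0.99, SE 0.21, adjusted p = 0.103), the smallest adjusted p of the members. Ccne2 was at 2.60 and 2.20 against 5.83 and 3.63 FPKM (0.97, adjusted p = 0.162), and Ccne1 at 5.57 and 5.46 against 9.13 and 6.92 (0.53). The groups of E2f2, Ccne2 and Ccne1 did not overlap, with KO replicate 1 again the highest library. Those of E2f1, the remaining S-phase entry gene, overlapped (6.57 and 4.63 against 10.4 and 6.18 FPKM).

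Uhrf1 was at 15.7 and 10.2 FPKM in the WT-labelled and 33.7 and 20.1 in the KO-labelled libraries in vivo (log2 fold change 1.05, SE 0.29, adjusted p = 0.17). Dnmt1 was at 45.1 and 38.7 against 66.2 and 48.3 FPKM (0.44). Chaf1a was at 2.31 and 1.98 against 4.19 and 2.60 FPKM (0.65). The lowest KO-labelled value exceeded the highest WT-labelled value in these 3 genes. The groups of Chaf1b, the remaining chromatin gene, overlapped (6.52 and 5.07 against 7.86 and 6.02 FPKM). Lig1 was at 15.1 and 10.6 against 23.8 and 16.2 FPKM (log2 fold change 0.63, adjusted p = 0.29). Fen1 was at 0.987 and 0.872 against 1.51 and 1.06 FPKM (0.46), the lowest WT level of the 45 genes in vivo. It passed the filter only through the KO-labelled libraries.

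KO replicate 1 was the highest in vivo library for every licensing and helicase gene, and WT replicate 2 the lowest for all but Mcm6 and Gins3. Cdc6 was at 3.18 and 2.26 FPKM in the WT-labelled and 7.14 and 3.68 in the KO-labelled libraries (log2 fold change 0.99, SE 0.33, adjusted p = 0.245). Mcm4 was at 39.7 and 33.9 against 54.4 and 43.6 FPKM (0.41). Orc6 was at 8.54 and 7.70 against 10.9 and 9.77 FPKM (0.34). None of these 3 overlapped between groups, but the licensing genes Cdt1, Mcm2, Mcm3, Mcm5 and Mcm7 did. Mcm10, too low to test in vitro, was at 2.03 and 1.17 against 4.61 and 2.69 FPKM (1.18, SE 0.34, adjusted p = 0.181). Gins1 was at 4.41 and 3.44 against 7.04 and 5.56 FPKM (0.67), and Cdc45 at 4.94 and 3.49 against 8.95 and 5.60 (0.78). Mcm6 was again the licensing gene with the lowest log2 fold change, at 68.1 and 61.4 against 73.1 and 57 FPKM, with its groups overlapping (-0.00, 95% interval -0.36 to 0.35). Gins4 was at 21.3 and 17.8 against 22.4 and 19.3 FPKM (0.09), also with overlap.

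Among the polymerase genes in vivo, Pola1 was at 2.97 and 2.64 FPKM in the WT-labelled and 5.65 and 3.58 in the KO-labelled libraries (log2 fold change 0.71, adjusted p = 0.216). Pole was at 4.42 and 3.74 against 8.03 and 4.81 FPKM (0.65), and Prim1 at 8.40 and 7.02 against 11.5 and 9.21 (0.41). Pola1 thus had the largest log2 fold change of its role in vivo and, with Pola2, one of the smallest in vitro. Pcna was at 38.5 and 30.4 against 51.5 and 41.2 FPKM (0.42, adjusted p = 0.303). The loader genes Rfc5, at 7.01 and 5.80 against 8.84 and 8.00 FPKM (0.39), and Rfc1, at 14.2 and 14.5 against 18.6 and 15.8 (0.25), showed no overlap. Rfc2 was at 12.4 and 10.5 against 13.4 and 11.4 FPKM (0.11), with overlap.

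RPA genes had the smallest median log2 fold change of the 9 roles in vivo (0.03). Rpa1 was at 31.9 and 30 FPKM in the WT-labelled and 32.4 and 31.2 in the KO-labelled libraries (log2 fold change 0.03, 95% interval -0.20 to 0.26). Rpa2 was at 11.2 and 8.82 against 13.7 and 11.1 FPKM (0.31), and Rpa3 at 12.9 and 12.5 against 13.1 and 11.6 (-0.05). The groups of all 3 overlapped. The members not yet given a value in vivo lay between 0.13 (Mcm7) and 0.76 (Orc1) in log2 fold change.

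Mitosis genes and some marker lists of other cells followed the same in vivo library order as the DNA replication genes, and other marker lists did not. The 20 mitosis genes summed to 121 and 88.6 FPKM in WT replicates 1 and 2 and to 322 and 175 in KO replicates 1 and 2. All 20 were tested, 0 passed, all 20 had an unadjusted p under 0.05, and their median log2 fold change was 1.30. Myeloid markers (9 of 9 with a row) summed to 159 and 85.0 against 354 and 178 FPKM, most of it from Fcer1g, and S100a8 was at 0 in WT replicate 2. B cell markers (7 of 8) summed to 15.7 and 4.93 against 27.6 and 20.3 FPKM. Double-positive thymocyte markers (8 of 8) summed to 86.6 and 72.4 against 143 and 88.2 FPKM. Innate-like T and NK markers (8 of 8) summed to 1224 and 942 against 1165 and 1146 FPKM, without that order. Coreceptor genes summed to 32.5 and 62.3 against 31.8 and 96.8 FPKM, lowest in KO replicate 1. T cell markers were highest in KO replicate 2, and early thymocyte and thymic stroma markers in WT replicate 2. Gamma delta T cell markers were highest in WT replicate 1 and lowest in KO replicate 2. In the mitosis, myeloid, B cell, erythroid and double-positive lists KO replicate 1 was highest and WT replicate 2 lowest, as for the members. Their part in the replication gene result was not tested. In the remaining cell cycle lists 0 genes passed in vivo, with median log2 fold changes of 0.20 (other replication machinery), 0.07 (nucleotide supply), 0.15 (G1/S regulators), 0.34 (checkpoint and repair) and 0.24 (histones and chromatin).

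**Figure D3:**
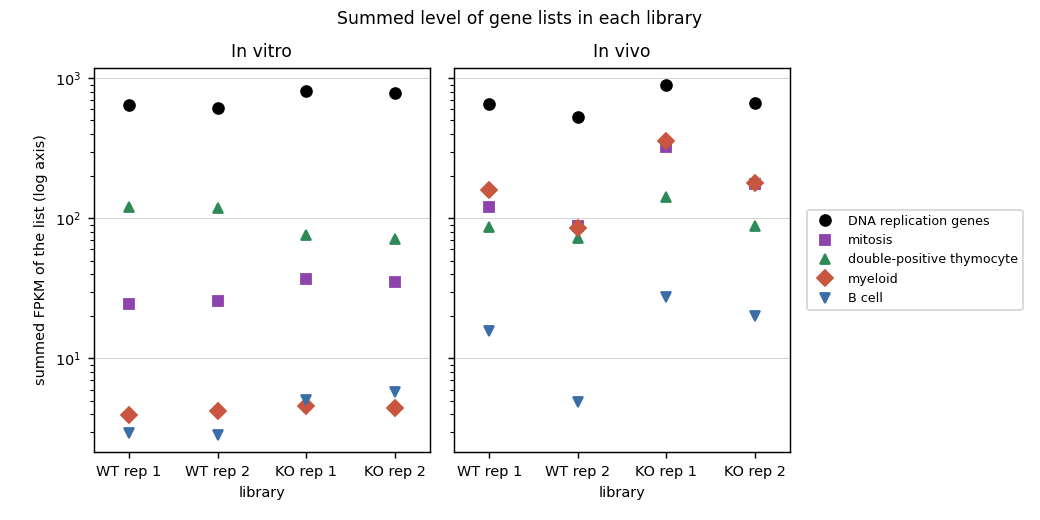
Summed FPKM (log axis) of the 45 DNA replication genes and of the mitosis, double-positive thymocyte, myeloid and B cell lists in each of 8 libraries (x axis). In vitro the replication gene sums are 649 and 617 in the WT-labelled and 816 and 791 in the KO-labelled libraries, and in vivo every list shown is highest in KO replicate 1 and lowest in WT replicate 2. Marker lists without that order, such as those of T cells and coreceptors, are not shown.

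Tested directly between the systems, the KO against WT change was smaller in vivo for 4 of 44 DNA replication genes and larger for 0. Among the 9364 genes tested, 9.81% changed lower and 6.57% higher in vivo. Rpa1 differed by -0.61 in log2 fold change (SE 0.12, edgeR adjusted p = 0.00916), Ccne1 by -0.97 (SE 0.25, adjusted p = 0.0237), E2f2 by -1.07 (SE 0.30, adjusted p = 0.0347) and Prim1 by -0.76 (SE 0.22, adjusted p = 0.0362). Lig1, at -0.79, did not pass (adjusted p = 0.0753). Of these, Rpa1 rose in vitro and had a log2 fold change of 0.03 in vivo, whereas the other 3 had log2 fold changes of 0.41 to 0.99 in vivo. Without in vitro WT replicate 1 all 4 calls were lost (edgeR adjusted p = 0.0534 for Rpa1, 0.0741 for Ccne1, 0.176 for E2f2 and 0.116 for Prim1). Rpa1 passed without each of the other 7 libraries, and each of the other 3 was lost without 4 more. The count of members lower in vivo without 1 library ranged from 0 to 7. The median difference over the members was -0.17, against -0.00 over all genes, and it was above 0 without in vivo WT replicate 1 (0.01) or without in vivo KO replicate 2 (0.03). Ccne2 (0.87), Tk1 (0.62) and Tyms (0.62) lay at the other end and did not pass (adjusted p = 0.156, 0.145 and 0.17).

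**Figure D4:**
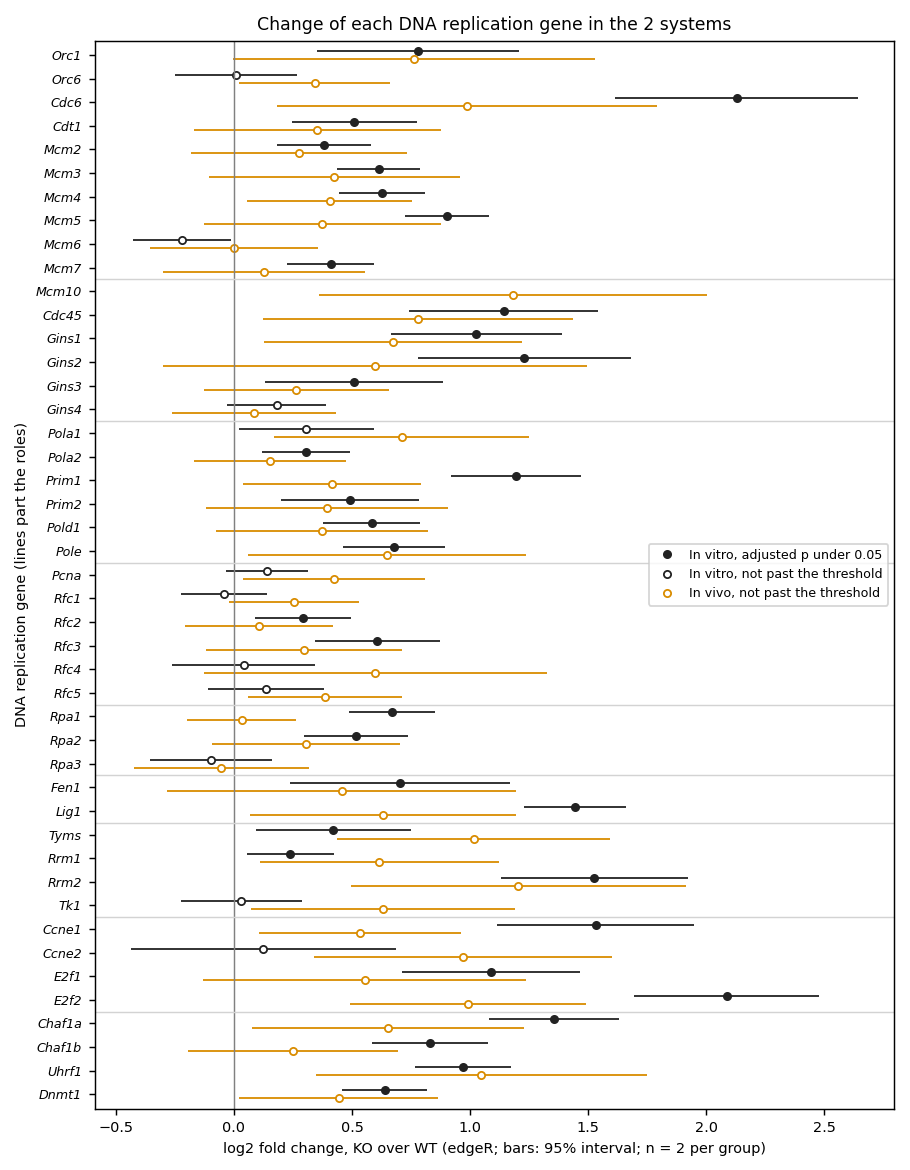
Log2 fold change of KO-labelled over WT-labelled libraries (x axis) with 95% intervals for each DNA replication gene (rows, parted by role), in vitro (black) and in vivo (orange); filled points passed an adjusted p of 0.05, and Mcm10 has no in vitro point because it was not tested. In vitro 33 points are filled and in vivo none, and the in vivo intervals are wider (median width 1.001 against 0.51).

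Over the 44 members tested in both systems, which share no library, 41 had a positive log2 fold change in each and 31 a larger one in vitro. Pearson's r between the systems' log2 fold changes was 0.55 and Spearman's rho 0.51, given as a description across genes that are not independent of each other. Levels in the WT-labelled libraries were set side by side from tables normalized separately. The WT mean FPKM was higher in vivo for 33 of 45 genes, with both in vivo libraries above both in vitro ones for 26 and below for 9. The same counts were not made over all genes, so these do not set the members apart. The ratio of in vivo to in vitro WT means was 9.35 for Rrm2, 8.34 for Cdc6, 7.75 for E2f2, 7.69 for Mcm10 and 4.58 for Ccne1. At the other end it was 0.43 for Pcna and 0.50 for Mcm6. Cdc6 and E2f2 stayed below their in vivo WT levels in the KO-labelled libraries in vitro, at 1.53 and 1.34 FPKM for Cdc6 and 4.55 and 3.78 for E2f2.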

How the data were processed

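Libraries were made from TRIzol total RNA, by BGI Genomics for the in vivo and Novogene for the in vitro system, per the labels' protocols. Each library's deposited table gives the authors' whole-number counts and FPKM values per gene, per the file headers. Tools listed in the submitters' processing notes are RSEM, featureCounts, Subread, Bowtie2, DESeq2 and Trim Galore 0.4.4, with build mm10 and no roles or order. Strand setting and annotation: not given in the sources used here. FPKM divided by count differed between libraries of a system by the same factor for every gene. The lowest mean count of a listed gene was 5 in each system, so lower rows are not analysed here.

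The counts were fitted with the quasi-likelihood test of edgeR 4.0.16 (R 4.3.3, TMM), for each system's 4 libraries alone and, for the difference between systems, for all 8 as group means. The filter kept genes with an FPKM of 1 or higher in 2 or more libraries, and tests were two-sided, with Benjamini-Hochberg adjustment over all of them and a threshold of 0.05. Standard errors were derived from the F statistic. On simulated data with 100 genes changed 2-fold and 100 changed 4-fold, 98 and 100 were recovered in vitro among 9658 genes (11 false calls), 85 and 99 in vivo among 10227 (16 false calls), and 93 and 99 for the difference among 9364 (14 false calls). Simulated counts were drawn for each gene independently at its fitted dispersion, without library shifts shared by many genes. These counts of recovered genes therefore do not give the recovery in the real libraries, above all in vivo. The chi-square of counts between replicates was 9.40 to 19.1 times its degrees of freedom, so none was counted as a repeat. Biological coefficients of variation were 0.0727 (in vitro) and 0.121 (in vivo). Mitochondrial genes held 1.49 to 2.24% of counts. Counting intervals would cover counting error only and are not used.

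The members and lists were chosen with earlier results of these data known. Library values were given for up to 3 members per role and system with the smallest adjusted p, the 5 largest and 5 smallest log2 fold changes, the 5 smallest adjusted p for the difference, and members under the filter. Of each cell cycle list, up to 3 called genes with the largest absolute change were named. Results for some genes are not reported here. Alternatives were DESeq2 1.42.0, upper-quartile scaling, no filter, limma 3.58.1 on log2(FPKM + 1) and log2(FPKM + 0.1), a replicate block, all 8 libraries, and leaving out each library, where a lone library is assumed to vary like the others. Library totals and a crossed block were added after seeing the data. Exon overlaps come from GENCODE M21 on mm10. Protein sequences were not analysed here.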

Additional observations from a re-analysis of the deposited data

Results flagged for a closer look

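The KO against WT change differed between the systems, by the edgeR test of the difference itself over all 8 libraries, for 4 of 44 DNA replication genes, all lower in vivo. Of all 9364 genes tested, 9.81% changed lower in vivo, a share close to that of the members. The log2 fold change in vivo minus that in vitro was -0.61 for Rpa1, -0.97 for Ccne1, -1.07 for E2f2 and -0.76 for Prim1. Provider and system cannot be told apart in these differences, and each was lost without at least 1 library. Groups of 2 libraries were too small to test for an outlying sample.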

How the results depend on the processing

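Of the 33 members that rose in vitro, 23 passed in all 13 alternatives. The count was 25 (spread from all 8 libraries) to 35 (crossed replicate block), and 26 to 30 without 1 library. The 10 calls lost somewhere were those of Cdt1, Mcm2, Mcm7, Gins3, Pola2, Prim2, Rfc2, Fen1, Tyms and Rrm1. Members that fell in vitro numbered 1, Mcm6, with DESeq2 and 1 with the crossed block. In vivo, members that rose numbered 6 with DESeq2, 5 with the spread from all 8 libraries, 27 with the replicate block and 0 to 11 without 1 library. For the difference, members lower in vivo numbered 1 with limma on log2(FPKM + 1), 9 with the replicate block and 0 to 7 without 1 library, and members higher in vivo numbered 2 with the block and 0 to 5 without 1 library. The median difference was -0.41 to 0.030 without 1 library. The cause of these changes was not tested.

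Whether replicate numbers pair samples could not be settled from 2 pairs: the WT and KO replicate differences correlated at -0.29 in vitro and 0.42 in vivo over all genes, and at -0.47 and 0.59 over the members. With the replicate block 30 members rose in vitro. With the block crossed in vitro, 35 members rose and 1 fell, and 2546 and 2451 of all genes did. Over all genes in vivo, those that rose numbered 29 and those that fell 84 as reported, 260 and 245 with DESeq2, 607 and 471 with the replicate block, 266 and 279 with all 8 libraries, 14 and 54 with limma on log2(FPKM + 1), 16 and 59 on log2(FPKM + 0.1), and 1 to 193 and 6 to 124 without 1 library. For all genes in vitro, those that fell numbered 1108 to 1597 without 1 library. All genes differing between systems numbered 159 to 843 higher and 374 to 976 lower in vivo without 1 library.

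Members near 0 changed sign. In vitro Orc6 had a log2 fold change of -0.00665 with upper-quartile scaling, -0.015 without a filter, and -0.016 and -0.018 with limma on log2(FPKM + 1) and log2(FPKM + 0.1). In vivo Mcm6 was at 0.0059 with DESeq2, 0.0036 without a filter and 0.020 with all 8 libraries. Without 1 library, the in vitro values were -0.059 to 0.078 for Orc6, -0.047 to 0.13 for Rfc4, -0.23 to 0.43 for Ccne2, -0.052 to 0.10 for Tk1 and -0.10 to 0.014 for Rfc1. The in vivo values were -0.20 to 0.18 for Mcm6, -0.032 to 0.22 for Gins4, -0.021 to 0.23 for Rfc2, -0.0050 to 0.078 for Rpa1, -0.14 to 0.36 for Mcm7, -0.021 to 0.31 for Pola2, -0.15 to 0.047 for Rpa3 and -0.52 to 0.16 for Bcl6. No scaling moved the median of all genes by over 0.1.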
